A study of Mus musculus with 6 samples.

Results

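The genes described here are the 10 core regulators of G1, the phase in which a cell commits to replicate its DNA or leaves the cycle. They are the D-type cyclin genes Ccnd1, Ccnd2 and Ccnd3, the kinase genes Cdk4 and Cdk6, the Cip/Kip inhibitor genes Cdkn1a and Cdkn1b, the INK4 inhibitor genes Cdkn2c and Cdkn2d, and Rb1. Every probe set annotated to 1 of these symbols alone was taken, which gave 27 probe sets of 34945 with a single symbol, for 10 genes of 18193. Of the 27 probe sets, 26 passed the filter on low values, and each of the 10 genes kept at least 1. Expression was measured on 3' arrays in myeloid cells sorted from femur and tibia marrow of HdcGFP reporter mice (C57BL/6 background, labelled female, age not given in the sources used here), in which green fluorescent protein reports activity of the histidine decarboxylase gene Hdc. Cells of both groups were CD11b+ and GFP+ or GFP high; 3 samples were Gr1lo and 3 were Gr1hi, Gr1 being an antigen of the Ly6 family carried by granulocytes and monocytes. No treatment is labelled, and the labels do not say whether the 3 samples of a group came from separate mice, so the p-values below speak to the spread among these 6 samples alone, which may be technical. Values are log2 probe set values, each gene is read from the probe set that had the highest 6-array mean, and every difference is Gr1hi minus Gr1lo.

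In G1, D-type cyclins bind CDK4 or CDK6, and the complexes phosphorylate the retinoblastoma protein and its relatives, which releases E2F factors to switch on the genes of S phase. INK4 proteins bind CDK4 and CDK6 and keep cyclins from them, whereas Cip/Kip proteins act chiefly on the complexes of CDK2 with cyclin E or A and also bind those of cyclin D. Neutrophil precursors of the marrow divide up to the myelocyte stage and then stop dividing as they mature, and cyclin D3, p27 (Cdkn1b) and CDK6 are known from work on granulocyte development.

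The arrays were first set against their labels. All 5 neutrophil precursor markers were lower and all 5 measured mature neutrophil markers higher in Gr1hi. The summed level of 15 measured S and G2/M phase genes, given as log2 of the sum of linear values, was 15.70 to 15.79 in Gr1lo and 12.47 to 12.65 in Gr1hi, and all 15 fell. In the monocyte and macrophage list 2 of 5 measured genes rose and 1 fell, and its summed level was 9.86 to 10.86 in Gr1lo and 11.90 to 12.20 in Gr1hi. Eosinophil genes summed to 8.23 to 8.77 and 8.22 to 8.47, with Ccr3, Epx and Il5ra at the absent level, meaning no higher on any array than 2.77, the highest value of the 3 probe sets for absent bacterial transcripts. T and NK cell genes summed to 4.66 to 4.71 and 4.94 to 5.01, with Cd3e, Cd3g and Ncr1 at the absent level and Cd6 higher by 0.54. Erythroid genes summed to 5.23 to 5.35 and 4.34 to 4.57, with Klf1 and Alas2 at the absent level and Hemgn lower by 1.96. The X-inactivation RNA Xist was at 1.97 to 2.43 in replicates 1 and 2 of both groups and at 10.95 and 10.14 in the replicate 3 arrays of Gr1lo and Gr1hi, while the Y-linked gene Eif2s3y was at 9.02 to 10.66 on all 6 arrays, which goes against the female label. Results are therefore also given without both replicate 3 arrays where a member's call changes, for Rbl2 and for the counts of members and other G1/S genes. The beta-actin 3' probe set exceeded its 5' probe set by 0.77 to 0.94 in Gr1lo and by 0.65 to 0.76 in Gr1hi. In bulk samples such as these, fewer cells of a type and less RNA per cell cannot be told apart.

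Gr1hi cells held less transcript of both G1 kinases, of the INK4 inhibitor gene Cdkn2c and of Rb1, and more of the inhibitor genes Cdkn1b and Cdkn2d and of the cyclin gene Ccnd3. Cdk4 fell 17.2-fold, Cdk6 8.86-fold and Cdkn2c 8.29-fold, whereas the largest rise called on these probe sets, in Cdkn1b, was 1.94-fold, although another Ccnd3 probe set rose 34.3-fold and Ccnd3 rose more than Cdkn1b when probe sets were averaged (1.95 against 0.99 on the log2 scale). Of the 10 genes 4 fell and 3 rose by limma at an adjusted p under 0.05, while among all 12732 genes tested 31.8% fell and 24.6% rose, 56.4% in all. The groups did not overlap in 8 of the 10 genes, against 65.5% of all genes tested. The median absolute difference was 0.88 for the 10 genes and 0.47 for all genes tested, and the median signed differences were -0.15 and 0.03. Of the 26 member probe sets tested 15 were called, 10 lower and 5 higher, beside 56.2%, 30.0% and 26.2% of 22695 probe sets.

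**Figure D1:**
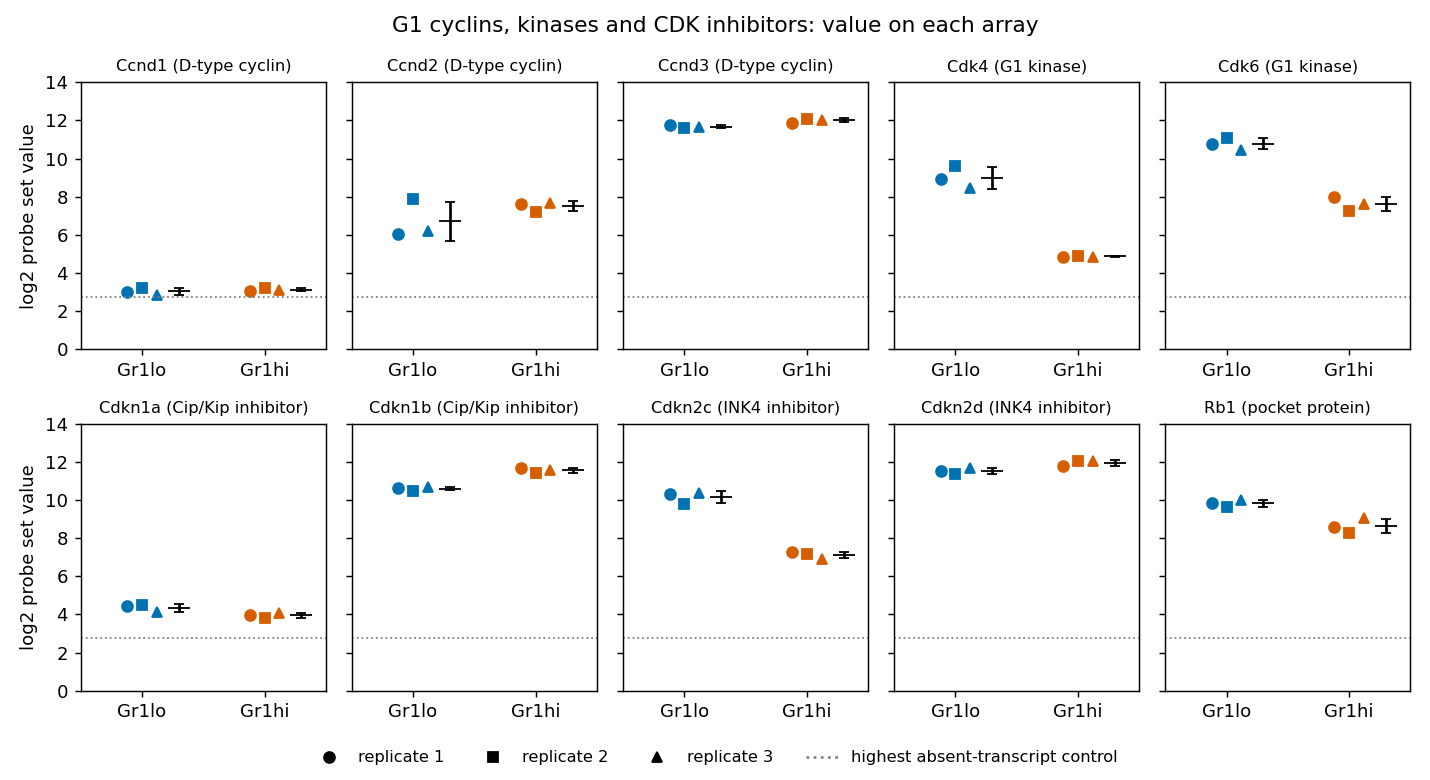
Log2 probe set value (vertical axis) of each of the 10 genes on each array, with circles, squares and triangles for replicates 1, 2 and 3, black bars for mean ± SD (n = 3) and a dotted line at 2.77, the highest value of the absent-transcript controls. Cdk4, Cdk6, Cdkn2c and Rb1 are lower on all Gr1hi arrays, Cdkn1b, Cdkn2d and Ccnd3 higher on all of them, and Ccnd2 in Gr1lo is split between 1 high and 2 low arrays.

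Cdk4 and Cdk6 encode the kinases that D-type cyclins activate. Cdk4 stood at 8.91, 9.60 and 8.46 in Gr1lo replicates 1, 2 and 3 and at 4.86, 4.92 and 4.87 in Gr1hi. The Gr1hi arrays lay close together and far below every Gr1lo array. The difference was -4.11 (SE 0.27, limma adjusted p = 1.67e-06), from 8.99 ± 0.57 to 4.88 ± 0.03 (SD, n = 3 per group). The probe set that stands for Cdk4 carries the suffix _x_at, by which the manufacturer marks probes that can match other transcripts, so the other 2 probe sets matter here. They fell as well: 1422439_a_at by 4.51, to 3.49 ± 0.56, and 1422440_at by 3.08, from 5.67 ± 0.73 to 2.59 ± 0.22. The last of these ended among the values of the controls for absent transcripts.

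Cdk6 stood at 10.79, 11.06 and 10.47 in Gr1lo and at 7.98, 7.26 and 7.64 in Gr1hi. Again no Gr1hi array reached any Gr1lo array, and the Gr1hi level stayed well above background. The difference was -3.15 (SE 0.21, limma adjusted p = 1.78e-06). A second probe set, 1455287_at, fell by 3.37, from 10.12 ± 0.23 to 6.75 ± 0.33. The third, 1460291_at, was near background throughout, at 2.81 to 3.13 in Gr1lo and 2.10 to 2.47 in Gr1hi, and fell by 0.65.

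The upstream sequences shown are those of Cdk4, Cdk6 and Ccnd3, the member entries that held a match to a motif searched. RefSeq promoter entries (assembly GRCm38.p6) were found for 7 of the 10 genes, 10 entries in all. The 250 bases before each start were searched on both strands for the E-box CACGTG, the FOXO motif GTAAACA and a loose form of the E2F motif. That form was TTTNNCGC, where N is any base. Cdk4 lies at chr10:127063285-127063534 (plus strand), Cdk6 at chr5:3343643-3343892 (plus strand) and the farther upstream of 2 Ccnd3 entries at chr17:47504801-47505050 (plus strand). Capitals mark the motif matches in the sequences, written 5′ to 3′ and ending at the base before the start.
Cdk4: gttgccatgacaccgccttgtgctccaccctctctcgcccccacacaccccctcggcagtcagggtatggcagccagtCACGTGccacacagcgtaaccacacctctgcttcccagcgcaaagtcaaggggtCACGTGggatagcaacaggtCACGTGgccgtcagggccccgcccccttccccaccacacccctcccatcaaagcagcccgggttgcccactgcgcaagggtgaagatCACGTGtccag
Cdk6: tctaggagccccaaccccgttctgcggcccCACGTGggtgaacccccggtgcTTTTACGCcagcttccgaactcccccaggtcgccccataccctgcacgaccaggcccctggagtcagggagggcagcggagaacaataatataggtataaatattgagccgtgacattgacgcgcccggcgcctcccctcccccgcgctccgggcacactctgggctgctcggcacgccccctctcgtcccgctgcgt
Ccnd3: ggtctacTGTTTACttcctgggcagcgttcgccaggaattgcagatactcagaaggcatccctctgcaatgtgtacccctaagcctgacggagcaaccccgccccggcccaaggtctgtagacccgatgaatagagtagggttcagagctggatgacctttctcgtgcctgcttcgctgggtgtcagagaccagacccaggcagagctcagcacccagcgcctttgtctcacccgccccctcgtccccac
Cdk4 held 4 E-boxes, beginning 172, 118, 98 and 11 bases before the start. Of 32851 promoter entries of that length, 6.02% held at least 1 E-box and 7 entries held 4 or more. Cdk6 held 1 E-box, beginning 220 bases before its start. It also held 1 match to the loose E2F form, TTTTACGC with TA in place of NN, beginning 198 bases before the start. That form was found in 4.28% of entries. The first Ccnd3 entry held 1 FOXO match, TGTTTAC on this strand, beginning 243 bases before its start, a motif found in 3.17% of entries. None of these 3 motifs matched in the entries of Cdkn1a, Cdkn1b, Cdkn2c or Cdkn2d or in the second Ccnd3 entry. A match describes the letters in the window and was not tested as a binding site, and no part of any factor in the values was tested.

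D-type cyclins are the regulatory partners of the G1 kinases, and the 3 genes did not behave alike. Ccnd3 stood at 11.74, 11.63 and 11.68 in Gr1lo and at 11.89, 12.10 and 12.04 in Gr1hi. All Gr1hi arrays were higher, by a margin as narrow as that between replicates. The difference was 0.33 (SE 0.08, limma adjusted p = 0.0077), a 1.25-fold rise that did not pass without both replicate 3 arrays (0.31, adjusted p = 0.0663) or when arrays were centred at the hybridization controls (0.07, adjusted p = 0.718).

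The probe sets of Ccnd3 disagreed on the size. Probe set 1438805_at stood at 6.45, 3.58 and 3.44 in Gr1lo and at 11.10, 9.08 and 8.59 in Gr1hi. Replicate 1 was the highest array of its group in both groups, and the groups were far apart. Its difference was 5.10 (SE 0.83, limma adjusted p = 5.34e-04), 34.3-fold, and stayed between 4.28 and 6.08 over the alternatives. The remaining probe set, 1444323_at, differed by 0.42 and did not pass (adjusted p = 0.104). When the 3 probe sets were averaged, Ccnd3 rose by 1.95, so the size of the Ccnd3 rise rests on which probe set is read. What part of the transcript each probe set covers was not examined here.

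Ccnd2 stood at 6.04, 7.86 and 6.21 in Gr1lo and at 7.60, 7.19 and 7.70 in Gr1hi. The probe set read here, 1455956_x_at, also carries the suffix _x_at, and the other Ccnd2 probe sets gave smaller differences, from 0.11 to 0.72. Gr1lo replicate 2 was above all Gr1hi arrays and the other two Gr1lo arrays below them, so the groups overlapped. The difference was 0.79 (SE 0.42, limma adjusted p = 0.142) and did not pass. Without Gr1lo replicate 2 it was 1.37 (adjusted p = 3.87e-04), and array weights (1.24, adjusted p = 0.00932) or centring each array at its kept-gene median (1.47, adjusted p = 0.00539) also brought it past the threshold. In the other direction it shrank to 0.46 without Gr1lo replicate 1 (adjusted p = 0.406), to 0.55 without Gr1lo replicate 3 (adjusted p = 0.343) and to 0.45 without both replicate 3 arrays (adjusted p = 0.525). All 7 Ccnd2 probe sets had differences above 0 and none of the 7 passed (unadjusted p 0.0824 or higher); in 5 of them Gr1lo replicate 2 was the highest of all 6 arrays, among them 1434745_at at 8.48 against 5.88 and 5.55 in the other Gr1lo replicates. On the same array the summed neutrophil precursor markers were the highest of the group (15.71, against 15.43 and 15.32) and the summed mature neutrophil markers the lowest (12.32, against 13.25 and 13.16). The part of these in the Ccnd2 value was not tested.

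Ccnd1 was hardly above background. It stood at 3.02, 3.24 and 2.87 in Gr1lo and at 3.04, 3.21 and 3.14 in Gr1hi, with overlapping groups and a difference of 0.08 (SE 0.12, limma adjusted p = 0.586). Of its other probe sets, 1417420_at lay between 2.39 and 3.02, and 1448698_at, the member probe set that did not pass the filter, between 1.88 and 2.26. Its difference turned to -0.17 when arrays were centred at the hybridization controls and passed the threshold under kept-gene centring (0.76, limma adjusted p = 3.76e-04).

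Cdkn1b, which encodes p27, a Cip/Kip protein of resting cells, stood at 10.62, 10.48 and 10.66 in Gr1lo and at 11.67, 11.43 and 11.54 in Gr1hi. The groups were clearly separate, with replicates within 0.24 of each other. The difference was 0.96 (SE 0.10, limma adjusted p = 2.44e-05). The second probe set, 1419497_at, rose by 1.01, from 4.17 ± 0.24 to 5.18 ± 0.34, and thus by nearly the same amount at a far lower value. Cdkn1a, which encodes p21, the inhibitor induced by p53, stood at 4.41, 4.48 and 4.11 in Gr1lo and at 3.97, 3.83 and 4.08 in Gr1hi. Gr1lo replicate 3 and Gr1hi replicate 3 were only 0.04 apart, although the groups did not overlap. The difference was -0.38 (SE 0.17, limma adjusted p = 0.0846) and did not pass; it passed without Gr1lo replicate 3 (-0.49, adjusted p = 0.0495), with the mean of both probe sets (-0.45, adjusted p = 0.00534), without the variance trend, with array weights and with centring at the hybridization controls, and turned to 0.30 once arrays were centred at their kept-gene medians. Its second probe set, 1421679_a_at, did pass, close to background: it fell by 0.52, from 3.29 ± 0.04 to 2.77 ± 0.12 (limma adjusted p = 0.00223). With arrays centred at the median of kept probe sets, a smaller shift than that of kept genes, it was not called (-0.20, limma adjusted p = 0.145). Under that centring the main Cdkn1a probe set differed by -0.06.

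The INK4 genes went opposite ways. Cdkn2c, which encodes p18, stood at 10.31, 9.78 and 10.39 in Gr1lo and at 7.26, 7.14 and 6.91 in Gr1hi. The lowest Gr1lo array lay far above the highest Gr1hi array. The difference was -3.05 (SE 0.18, limma adjusted p = 1.16e-06). Cdkn2d, which encodes p19, was high on all arrays, at 11.51, 11.38 and 11.66 in Gr1lo and 11.77, 12.04 and 12.02 in Gr1hi. The groups were separate by a small margin. The difference was 0.43 (SE 0.11, limma adjusted p = 0.00644), a 1.34-fold rise that was not called when arrays were centred at the hybridization controls (0.17, adjusted p = 0.388). Each of these genes had 1 probe set.

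Rb1 encodes the retinoblastoma protein, the substrate through which the cyclin D kinases act. It stood at 9.83, 9.63 and 9.99 in Gr1lo and at 8.59, 8.29 and 9.03 in Gr1hi. All Gr1hi arrays were lower, and replicate 3 was the highest array of both groups. The difference was -1.18 (SE 0.19, limma adjusted p = 4.99e-04), a 2.27-fold fall, which shrank to -0.51 (adjusted p = 0.0255) under centring at the kept-gene median. Probe set 1444400_at fell by 0.42 between 2.78 ± 0.16 and 2.35 ± 0.08, at the level of the controls for absent transcripts.

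**Figure D2:**
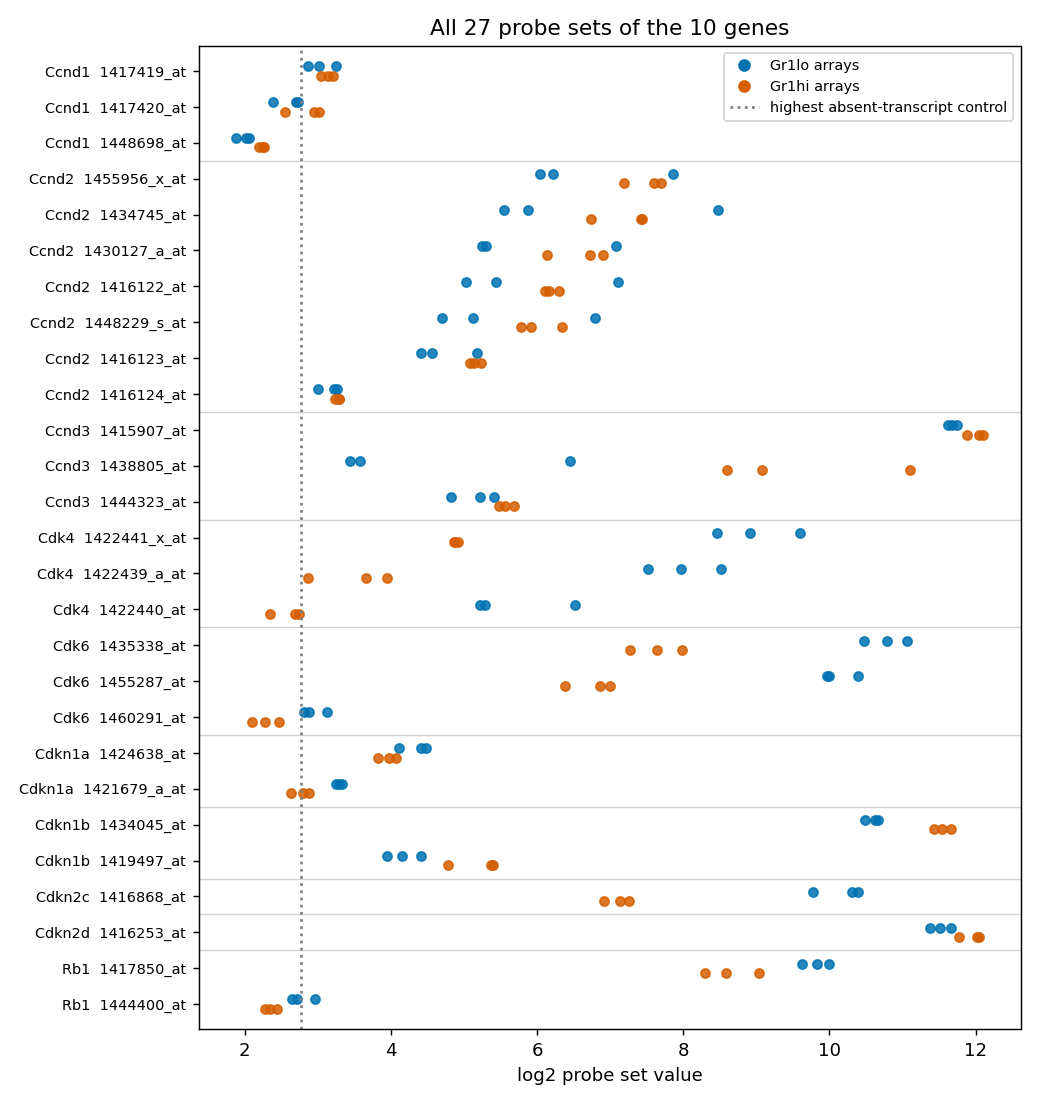
Log2 probe set value (horizontal axis) of all 27 probe sets of the 10 genes on each array, Gr1lo in blue and Gr1hi in orange, ordered by gene and level, with a dotted line at 2.77, the highest absent-transcript control value. Probe sets of Cdk4, Cdk6, Cdkn1b and Rb1 shift the same way within each gene, whereas 1438805_at of Ccnd3 shifts by 5.10 and the main Ccnd3 probe set by 0.33.

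Whether related genes changed unequally was tested on differences taken within each array, which a shift of a whole array does not move. The smallest two-sided p that an exact permutation test of 3 against 3 arrays can give is 0.1, so no such comparison could pass 0.05. Cdkn2d relative to Cdkn2c was 1.20, 1.60 and 1.28 in Gr1lo and 4.51, 4.90 and 5.10 in Gr1hi. This gap widened by 3.48 on the log2 scale, without overlap (exact permutation p = 0.1, 0.133 after Benjamini-Hochberg adjustment over the 4 pairs compared). Cdkn1a relative to Cdkn1b shifted by -1.34, and Cdk6 relative to Cdk4 by 0.96, both without overlap and with the same exact p. Ccnd3 relative to Ccnd2 shifted by -0.47 with overlapping groups (exact permutation p = 0.5), by -1.07 without Gr1lo replicate 2 and -0.11 without Gr1lo replicate 1, and by 1.46 when each gene's probe sets were averaged.

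The calls of the smaller differences rest on how the arrays are scaled, and for Ccnd1 and Cdkn1a the direction does too. Centring every array at its kept-gene median moved the median difference of all genes from 0.03 to 0.70, while using the spiked hybridization controls as the centre moved it to -0.23. The turn of Cdkn1a rests on the features used for the median. Centring at the median of kept probe sets moved the median difference of all probe sets from 0.04 to 0.36. It left the 2 Cdkn1a probe sets below 0 (-0.06 and -0.20). Of the calls over all genes 43.6% were higher in Gr1hi as deposited, 78.3% under kept-gene centring and 27.7% under spike-in centring. Among the 10 genes, 3 rose and 4 fell as deposited, 5 rose and 4 fell under kept-gene centring, and 1 rose and 5 fell under spike-in centring. Cdk4, Cdk6, Cdkn1b, Cdkn2c and Rb1 kept direction and call in all 19 alternatives run.

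**Figure D3:**
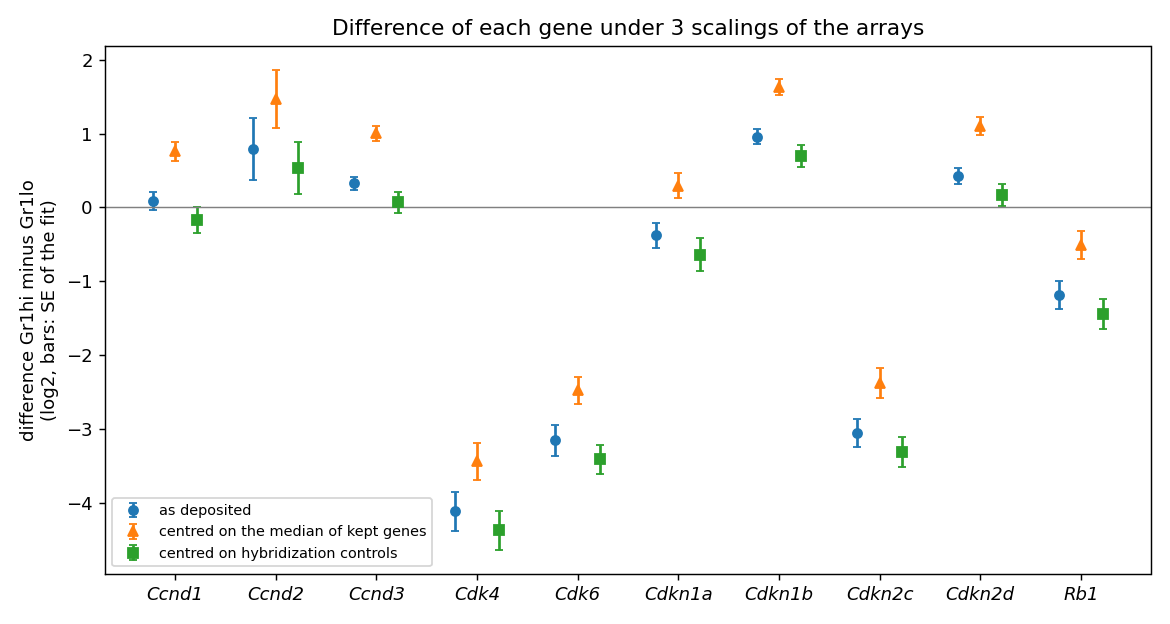
Difference Gr1hi minus Gr1lo (log2, vertical axis) of each of the 10 genes with the arrays as deposited (circles), centred at the kept-gene median (triangles) and at the hybridization controls (squares); bars are the SE of the fit. Cdk4, Cdk6, Cdkn2c and Rb1 lie below 0 and Cdkn1b above 0 under all 3, while Ccnd1 and Cdkn1a cross 0.

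Other genes of the G1 to S transition were read from a list of 55, of which 53 had a probe set and 48 were tested. Of these, 25 fell and 13 rose, beside the 31.8% that fell and 24.6% that rose among all genes tested, so that the share of rises was near the background. The median difference was -0.74, against 0.03 for all genes tested. Under kept-gene centring 21 fell and 22 rose, where 2316 and 8344 of 12732 genes did so. With the hybridization controls 26 fell and 9 rose, where 4849 and 1861 of all genes did so. Without both replicate 3 arrays 26 fell and 10 rose, where 3737 and 2734 of all genes did so.

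Of the partners and targets downstream of the cyclin D kinases, the cyclin E, cyclin A and Cdk2 genes and most E2F and DP genes fell, while the pocket protein and DREAM genes were mixed. All 4 genes of cyclin E, cyclin A and Cdk2 fell, under each of these scalings, among them Ccne2 from 9.78 ± 0.44 to 4.01 ± 0.22 and Ccna2 from 11.59 ± 0.12 to 8.44 ± 0.20 (limma adjusted p = 1.84e-07 and 1.68e-07). Of 9 tested E2F and DP genes 7 fell and 0 rose, with 5 falling and 2 rising under kept-gene centring; E2f2 (0.37) and E2f5 (0.004) did not pass. Of 8 other pocket protein and DREAM complex genes 4 fell and 1 rose, and 4 fell and 3 rose under kept-gene centring. E2f7 and E2f8, which encode repressors of E2F targets, fell by 5.27 and 3.03. Among relatives of Rb1, Rbl1, which encodes p107, fell from 11.06 ± 0.01 to 7.45 ± 0.32, while Rbl2, which encodes p130 of resting cells, rose by 0.73 (limma adjusted p = 0.00533), a call that did not pass without both replicate 3 arrays (0.59, adjusted p = 0.0623). The 3 pocket protein genes thus comprised 2 that fell and 1 that rose.

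Genes of the ubiquitin ligases that degrade G1 regulators went both ways, with 4 of 8 lower and 3 higher. Skp2, whose product marks p27 for degradation, fell by 5.82 to 4.18 ± 0.51 (limma adjusted p = 3.22e-07), and its cofactor gene Cks1b fell from 13.35 ± 0.06 to 10.75 ± 0.17. Fbxo31, whose product can mark cyclin D1 for degradation, rose from 3.33 ± 0.40 to 6.52 ± 1.39 (limma adjusted p = 0.00108). Of 6 tested genes of the p53 list 5 rose and 0 fell, among them Gadd45a from 8.94 ± 0.49 to 11.91 ± 0.23, Sesn2 by 2.62 and Trp53inp1 by 1.92, while Cdkn1a, also a p53 target, had the values given above. When arrays were centred at the hybridization controls 4 of the 6 rose.

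Of the upstream factors, Foxo3, whose product can activate Cdkn1b, rose from 8.67 ± 0.18 to 10.67 ± 0.12 (limma adjusted p = 1.63e-06). Myc stood at 5.48, 6.24 and 4.50 in Gr1lo and at 3.01, 2.76 and 2.76 in Gr1hi. It was thus near the absent level on all Gr1hi arrays and spread widely among the Gr1lo arrays, and it fell by 2.56 (limma adjusted p = 2.42e-04). Its partner gene Max rose from 8.30 ± 0.23 to 10.34 ± 0.12. Gr1lo replicate 2 had the highest value of the 6 arrays for Myc as for Cdk4, Cdk6 and Ccnd2. Skp2, Myc and Rbl2 were picked after their values were seen.

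**Figure D4:**
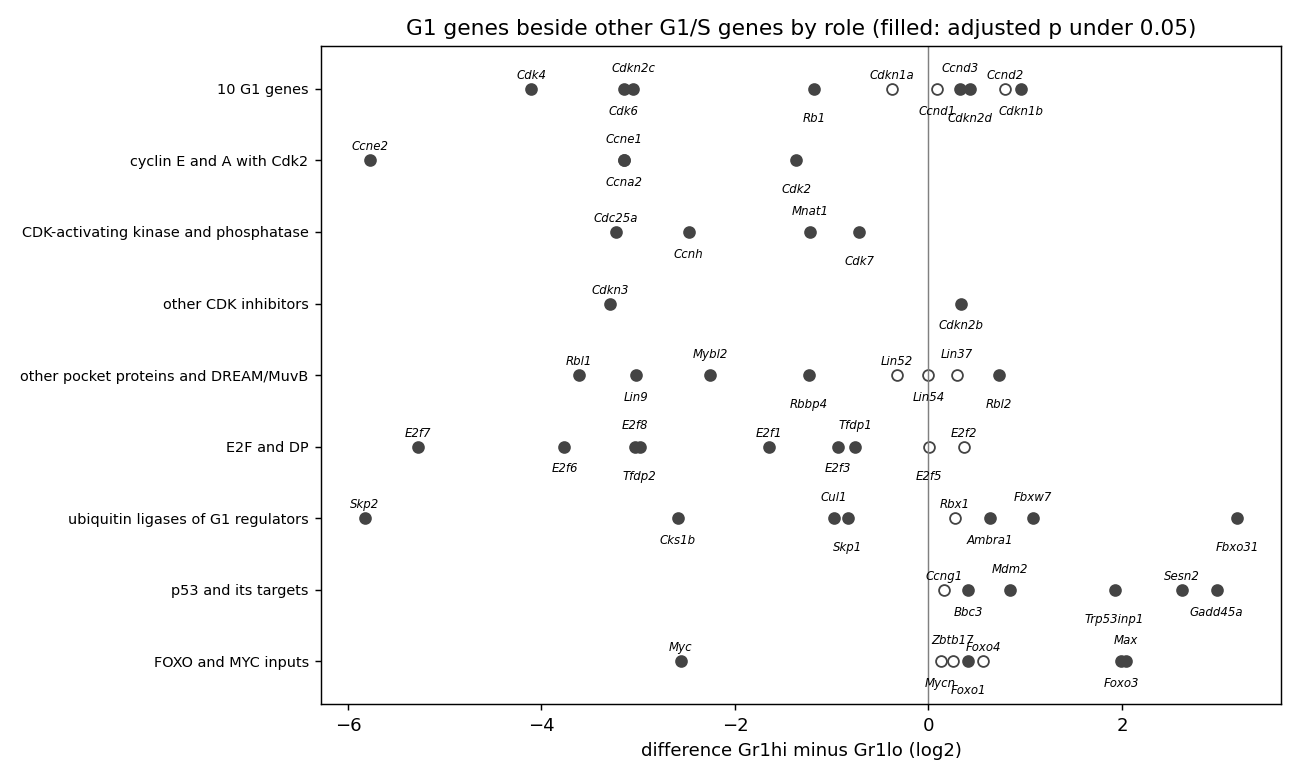
Difference Gr1hi minus Gr1lo (log2, horizontal axis) of the 10 G1 genes (top line) and of 48 other G1/S genes by role; filled circles passed an adjusted p under 0.05 and open circles did not. The cyclin E, cyclin A and Cdk2 genes lie at or below -1.36, and the p53 list lies at 0.16 or above.

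Many genes changed in parallel with these, so likeness over 6 arrays says little beyond the difference between the groups. The genes with the highest Pearson correlation with Cdk4 were Bcas2 (r = 0.9997), Csrp2 and Phf10 (both r = 0.9993), which differed by -1.36, -2.35 and -0.78. For Cdkn1b they were Slmap (r = 0.9999), Pknox1 (r = 0.9991) and Ninj1 (r = 0.9988), which differed by 0.40, 1.79 and 3.86. All arrays of a group share the group's sort, and these correlations are a description with no test.

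The falls of Cdk4, Cdk6, Cdkn2c and Rb1 came with the lower S and G2/M and neutrophil precursor markers, and the rises of Cdkn1b, Cdkn2d and Ccnd3 with the higher mature neutrophil markers given at the outset. Lists of several other cell types differed too. Stem and progenitor genes summed to 8.29 to 8.80 in Gr1lo and 6.53 to 7.06 in Gr1hi (2 of 3 tested fell), and basophil and mast cell genes to 8.86 to 9.07 and 6.60 to 8.62 (2 of 4 tested fell), with Kit in both lists. Dendritic cell genes summed to 4.63 to 4.86 and 5.89 to 6.88 (1 of 2 tested rose). The gene that rose was Itgax, by 3.29, while Siglech did not pass and Flt3 and Xcr1 were at the absent level. Of the monocyte and macrophage genes, Csf1r and Adgre1 rose by 4.01 and 2.99, F13a1 fell by 0.98, and Cx3cr1 and Ccr2 did not pass. Precursor markers summed to 15.32 to 15.71 in Gr1lo and 10.74 to 11.72 in Gr1hi, and mature markers to 12.32 to 13.25 and 15.38 to 15.44. The part of a changed mix of cells in the values of the 10 genes was not tested.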

How the data were processed

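Total RNA of 3 Gr1lo and 3 Gr1hi samples (100 ng each) went onto 3' arrays, as the labels' protocols state. The authors deposited log2 values per probe set, computed by GCRMA (per the submitters' processing notes), whose settings were not given in the sources used here. They ran from 0.87 to 15.01, with array medians of 2.86 to 2.94, and carry no detection calls; the number of arrays limits the precision. One description of Gr1lo replicate 3 can be read as GFP-negative; it was grouped by its title.

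Probe sets were named through the platform annotation: 34945 had 1 symbol, 932 several and 9160 none, and 64 controls were set aside. A feature was kept if it exceeded the 40th percentile of the array on 3 or more of the 6 arrays (12732 of 18193 genes, 22695 probe sets). Groups were compared with limma 3.58.1 in R 4.3.3 (eBayes with trend, two-sided, Benjamini-Hochberg over all genes or probe sets). On simulated data with the spread of these arrays (12732 genes, 50 changed per size), log2 changes of 0.5, 1, 2 and 4 were recovered in 34%, 78%, 94% and 100%, with 15 false calls. Far fewer genes changed there than the 56.4% called here, so these shares do not give the recovery in this comparison. Figures used matplotlib 3.10.9. The members, lists and tests were chosen with earlier results of these data known. Named besides the members were the 6 other G1/S genes with the smallest p in each direction and the 3 genes most correlated with the members of largest rise and fall.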

Additional observations from a re-analysis of the deposited data

How the results depend on the processing

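Cdk4, Cdk6, Cdkn1b, Cdkn2c and Rb1 kept direction and call in all 19 alternatives, and the other 5 genes did not; Ccnd1 had no value with a filter at the 60th percentile, which it did not pass. The count of members that rose (3) was 5 under centring at the kept-gene median, 1 under centring at the hybridization controls and 1 in a test against a 1.5-fold change; the count that fell (4) was 4 to 5. For member probe sets that rose (5), these settings gave 12, 3 and 2, with the median taken over kept probe sets in place of kept genes. Array weights gave 9, where 6365 of all 22695 probe sets rose. Over all genes (3126 rose, 4051 fell), kept-gene centring gave 8344 and 2316, hybridization-control centring 1861 and 4849, and the 1.5-fold test 1355 and 2419. Over probe sets (5947 rose, 6804 fell) centring at the median of kept probe sets gave 11648 and 5076, hybridization-control centring 3584 and 8267, and the 1.5-fold test 2530 and 3803. Of the other G1/S genes, 22 rose under kept-gene centring and 6 in the 1.5-fold test, against 13.

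Leaving out 1 array at a time gave 3 to 4 members that rose and 4 to 5 that fell. Of all 12732 genes, 2748 to 2966 rose and 3794 to 3925 fell. Member probe sets gave 5 to 11 that rose (11 without Gr1lo replicate 2) and 10 to 11 that fell. Of all 22695 probe sets, 5192 to 5603 rose and 6341 to 6580 fell. Without both replicate 3 arrays 2 members rose and 4 fell, beside 2734 and 3737 of all genes. The difference of Ccnd1 was -0.173 with the hybridization controls, -0.00323 to 0.186 with 1 array left out (without Gr1lo replicate 3 and without Gr1lo replicate 2), and -0.00729 without both replicate 3 arrays, and that of Cdkn1a was 0.297 under kept-gene centring. That of Ccnd2 was 0.46 to 1.37 with 1 array left out. Ccnd3 relative to Ccnd2 shifted by -1.07 to -0.11 with 1 array left out and by 1.46 with averaged probe sets; the Ccnd3 probe set 1438805_at enters that mean.

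Same-numbered arrays of the groups correlated in their deviations at 0.17, 0.004 and 0.15, and arrays of unlike number at -0.19 to 0.04. The replicate 3 arrays also shared high Xist. Whether the numbers pair the samples was not settled, and the main fit did not pair them. With the replicate number as a block 3 members rose and 4 fell, over all genes 3036 rose and 4020 fell, and no member's call changed. Signal near background limits Ccnd1, Cdkn1a and, in Gr1hi, the Cdk4 probe sets 1422439_a_at (3.49) and 1422440_at (2.59). The main Cdk4 probe set stood at 4.88 in Gr1hi.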
